A study of Homo sapiens with 6 samples.

Results

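The 5 assays described here read small RNAs that are made by routes other than the standard one: hsa-miR-320, hsa-miR-484, hsa-miR-451, hsa-miR-886-3p and hsa-miR-886-5p. They were picked by name from 377 human microRNA (miRNA) assays on a quantitative PCR card. The cells were HEK-293FT, a human embryonic kidney line that carries the SV40 large T antigen. The 3 control samples are labelled only as control. The 3 knockdown samples received small interfering RNAs against TruB1, a pseudouridine synthase known for its action on transfer RNA, delivered with a lipid reagent. Each control shares a series number from 1 to 3 with a knockdown sample, and the labels do not say what that number stands for, nor whether the samples came from separate cultures, so p-values measure only the spread between these samples. TruB1 transcript and protein were not analysed here.

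Most miRNAs are released by successive cuts. Drosha, with its partner DGCR8, releases a hairpin from a long transcript in the nucleus, and Dicer then cuts off the loop in the cytoplasm. The precursors of miR-320 and miR-484 are instead transcribed as short capped hairpins whose ends need no cut by Drosha, so they reach Dicer directly. The hairpin of miR-451 is cut by Drosha but is too short for Dicer, and it is trimmed after slicing by an Argonaute protein. The sequences named miR-886-3p and miR-886-5p lie in VTRNA2-1, also called nc886, a vault-like RNA made by RNA polymerase III, and are no longer listed as miRNAs. U6 small nuclear RNA, the reference of this study, is itself a polymerase III product.

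The deposited assay target sequences show which strands were read, and they are given 5′ to 3′ because the members come from unrelated precursors, apart from the miR-886 arms. Capitals mark the seed, bases 2 to 8, which pairs with target messenger RNAs.
miR-484: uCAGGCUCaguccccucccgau
miR-451: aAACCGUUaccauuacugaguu
miR-886-3p: cGCGGGUGcuuacugacccuu
miR-886-5p: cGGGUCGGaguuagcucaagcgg
No other human assay on the card had any of these seeds, or that of miR-320, at bases 2 to 8 of its target. Thus no 2 members share a seed. The targets are 21 to 23 bases long. Guanine and cytosine make up 54.5% of the miR-320 target, 63.6% of that of miR-484, 61.9% of that of miR-886-3p, 65.2% of that of miR-886-5p and 36.4% of that of miR-451, against a median of 45.5% over the 377 targets. The miR-886 arms and miR-484 therefore lie near the G+C-rich end, where 92.6%, 95.8% and 93.4% of the targets held a lower share than miR-886-3p, miR-886-5p and miR-484.

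The miR-484 target matched 1 mature entry in RefSeq exactly (GRCh38.p14). Its hairpin lies at chr16:15643294-15643372 on the plus strand and is shown with the mature strand in capitals, since this is the precursor that is known to be made with a cap.
MIR484 hairpin: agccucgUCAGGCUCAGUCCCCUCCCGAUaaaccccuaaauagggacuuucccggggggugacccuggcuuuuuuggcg
The mature strand covers bases 8 to 29 of 79, on the 5′ arm. The miR-320 assay is annotated to miR-320a, and the first 20, 19 and 18 bases of its target are also those of miR-320b, miR-320c and miR-320d in RefSeq. Whether the assay also reads those paralogs was not tested.

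The measured value is the threshold cycle (Ct), reached earlier the more template a well holds. At full efficiency 1 cycle stands for a doubling. A well with no crossing within 40 cycles is recorded as undetermined. Between 198 and 228 of the 377 human assays were determined per card, and each miRNA had 1 well per card. Mean U6 Ct was 13.6 ± 1.33 in the controls and 14.5 ± 1.14 in the knockdowns (SD, n = 3). The difference of 0.905 cycles did not exceed the SD of the groups (two-sided exact permutation test, p = 0.5; 0.1 is the smallest possible) and was 0.172 without control 3. By pair, U6 crossed later in knockdown in 3 of 3 series, by 0.142, 1.48 and 1.10 cycles (exact sign-flip test, two-sided, p = 0.25, the smallest that 3 pairs allow). The card median, taken over the 157 assays with a Ct under 35 in all 6 samples, was 26.5 ± 0.263 and 27.4 ± 0.911 cycles (SD, n = 3). Of the 24 U6 wells, 4 were undetermined, although the determined U6 wells on those 3 cards had a Ct of at most 16.2. An early-crossing RNA therefore also gave undetermined wells on these cards.

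The 5 members fell into a detected and a barely detected set. Both Drosha-independent miRNAs, miR-320 and miR-484, were determined on every card and well before the card median. The Dicer-independent miR-451 and the polymerase III products miR-886-3p and miR-886-5p were determined in 1, 2 and 1 of 6 samples, at Ct values between 33.2 and 35.9. Over the card, 161 assays were determined in all 6 samples and 101 in none.

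**Figure D1:**
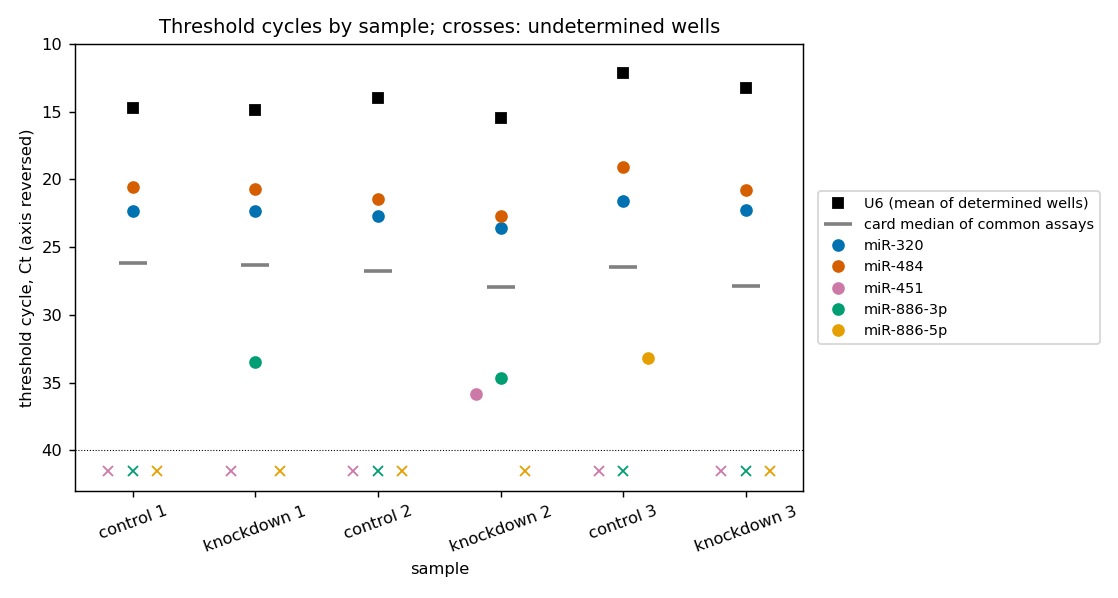
Threshold cycle (Ct, reversed axis, so more template is higher) of the 5 members in each of the 6 samples, with the mean of the determined U6 wells (squares) and the median of 157 commonly detected assays (dashes); crosses below 40 cycles are undetermined wells. miR-484 and miR-320 lie between U6 and the card median on all 6 cards, while miR-451, miR-886-3p and miR-886-5p give 4 determined wells in all, none before Ct 33.2.

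miR-484, transcribed as a capped hairpin, was among the earliest assays. Its Ct was 20.6, 21.4 and 19.1 in controls 1, 2 and 3 and 20.7, 22.7 and 20.8 in knockdowns 1, 2 and 3. It ranked between 7 and 11 from the earliest among the determined assays of a card. Raw Ct was later in knockdown in 3 of 3 series, by 0.0831, 1.27 and 1.69 cycles, and over the same pairs the card median was later by 0.144, 1.23 and 1.46 cycles. The raw shift of miR-484 thus ran close to that of the card, and the 2 groups overlapped.

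miR-320, the other capped hairpin, crossed at 22.4, 22.7 and 21.6 cycles in controls 1, 2 and 3 and at 22.3, 23.6 and 22.3 in knockdowns 1, 2 and 3. Its rank ran from 15 to 27. In series 1 the wells of the pair differed by -0.0252 cycles, and in series 2 and 3 knockdown was later by 0.887 and 0.657 cycles, less than the card median of the same pairs. The groups overlapped here too.

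Relative to U6, the scale of the deposited values, the log2 level of miR-320 was -7.62, -8.74 and -9.47 in controls 1, 2 and 3 and -7.46, -8.15 and -9.04 in knockdowns 1, 2 and 3. The knockdown sample was the higher of its pair each time, by a fold of 1.12, 1.51 and 1.36, while the levels of the series themselves lay farther apart. As background, 7 of 161 assays (4.35%) were higher relative to U6 in 3 of 3 series and 31 of 161 (19.3%) were lower. For miR-484 the log2 level was -5.86, -7.45 and -6.92 in control and -5.80, -7.24 and -7.52 in knockdown, with folds of 1.04, 1.15 and 0.662, so the pairs did not run one way. The U6 mean that sets this scale had a standard error over its wells of 0.117 to 0.911 cycles per card, the largest in control 3, where 2 wells were determined. The pair difference of miR-320 in series 3, 0.44 on the log2 scale, was smaller than that error.

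Over all samples neither miRNA passed the test relative to U6, and 0 of the 195 assays tested did (0%). The log2 fold change of miR-320 was 0.40 (SE 1.46, limma adjusted p = 0.999) and its 95% confidence interval ran from -2.47 to 3.27. For miR-484 it was -0.11 (SE 1.46, limma adjusted p = 0.999), with an interval from -2.98 to 2.76. limma draws the variance of each assay toward a value common to all tested assays. These SEs and intervals therefore do not measure the spread of each miRNA alone. The SDs of miR-320 itself were 0.93 in control and 0.79 in knockdown, and those of miR-484 were 0.81 and 0.92. At an unadjusted p under 0.05 limma gave 0 assays. With a replicate block for the series number, 10 of 189 assays (5.29%) were under that level, miR-320 and miR-484 not among them, and 0 passed an adjusted p of 0.05 (0%). The direction for miR-320 turned without control 3 (-0.031). The direction for miR-484 turned without control 1 (0.33), knockdown 2 (0.09) or knockdown 3 (0.22).

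The card median offers a second scale that does not involve U6. On it, miR-320 stood at 3.84, 4.01 and 4.81 log2 units above the median in controls 1, 2 and 3 and at 4.01, 4.35 and 5.61 in knockdowns 1, 2 and 3. Each knockdown was above its own control, and the highest control lay above 2 of the 3 knockdowns, so the groups overlapped. How many assays were higher in knockdown in every series on this scale was not counted. Groups that do not overlap on this scale were seen for 3 of 161 assays (1.86%). miR-484 stood at 5.61, 5.30 and 7.36 in control and at 5.67, 5.26 and 7.12 in knockdown. The pairs of miR-484 differed by 0.06, -0.04 and -0.23, whereas both series 3 samples lay above every sample of series 1 and 2 by more than any of these. Group means were 4.22 ± 0.51 and 4.66 ± 0.84 for miR-320 and 6.09 ± 1.11 and 6.02 ± 0.98 for miR-484 (control and knockdown, SD, n = 3).

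**Figure D2:**
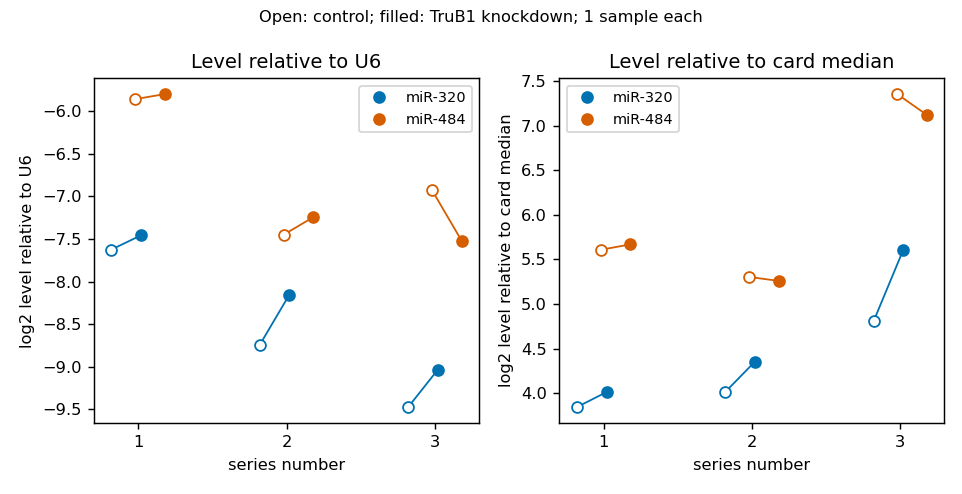
Log2 level of miR-320 and miR-484 in each series, relative to U6 (left) and to the card median (right); open points are control, filled points TruB1 knockdown, 1 sample each, joined within a series. miR-320 is higher in knockdown in 3 of 3 series on both scales, and miR-484 stands at 7.12 to 7.36 above the card median in series 3 against 5.26 to 5.67 in series 1 and 2.

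On this scale the group difference of miR-320 was 0.44 (SE 0.60, limma adjusted p = 1.00), with a 95% confidence interval from -0.94 to 1.82, and neither group's SD was exceeded. For miR-484 it was -0.07 (SE 0.75, limma adjusted p = 1.00), with an interval from -1.79 to 1.64. Of 195 assays 0 passed an adjusted p of 0.05 (0%) and 2 were under an unadjusted 0.05 (1.03%); with the replicate block these counts were 0 (0%) and 11 of 189 (5.82%), neither miRNA among them. The block narrowed the intervals to -0.41 to 1.28 for miR-320 and -0.87 to 0.73 for miR-484. Exact two-sided permutation tests on the centred values gave p = 0.6 for miR-320 and 0.9 for miR-484 (0.9 each when adjusted over these 2 tests; smallest possible 0.1). Without knockdown 3 the difference of miR-320 was -0.038. That of miR-484 changed sign without knockdown 1 (0.10), knockdown 2 (0.31) or control 3 (0.56). It also did so on 2 other scalings, at 0.026 with the mean of the common assays in place of their median and at 0.19 with quantile normalization.

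Within each series, the change of a member was also set against the median change of all tested assays determined on both cards, which is taken over more assays than the card median and is a different quantity. On the card-median scale itself the pair differences of miR-320 were 0.17, 0.34 and 0.80, with a mean of 0.44. Relative to U6, the median assay changed on the log2 scale by -0.21 over 189 assays in series 1, by 0.32 over 177 in series 2 and by -0.51 over 179 in series 3. The change of miR-320 lay above that median by 0.38, 0.28 and 0.95, with 68.8%, 62.1% and 88.8% of the assays below it. In series 1 and 2 it was between the quartiles of the assays, and in series 3 it was above the upper quartile, which lay 0.46 over the median. Of 161 assays with a value in 3 series, 21 (13.0%) lay below the median change in all 3. Above it in all 3 lay 19 (11.8%), miR-320 among them. Averaged over the series, the excess over the median change was 0.53 ± 0.36 (SD, n = 3 series), which was 0.33 without series 3, and 147 of the 161 assays had a lower mean.

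The change of miR-484 differed from that of the median assay by 0.27, -0.11 and -0.09 in series 1, 2 and 3. It had 61.4%, 46.3% and 45.8% of the assays below it and lay between the quartiles each time. The mean over series was 0.02 ± 0.21 (SD, n = 3 series).

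**Figure D3:**
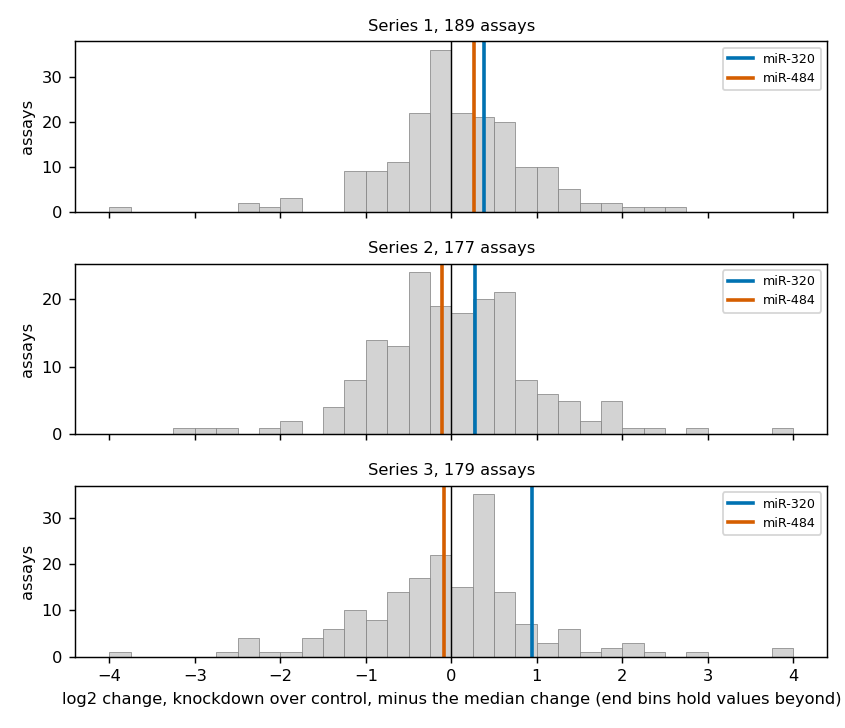
Distribution of the log2 change, knockdown over control, minus the median change of the same series, for all tested assays determined on both cards (189, 177 and 179 assays in series 1, 2 and 3); bars count assays, the black line is the median and coloured lines mark miR-320 and miR-484. miR-320 lies 0.38, 0.28 and 0.95 to the right of the median, and miR-484 at 0.27, -0.11 and -0.09.

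The 2 capped hairpins can be compared on each card without any reference. The log2 level of miR-320 relative to miR-484 was -1.87 ± 0.64 in control and -1.36 ± 0.40 in knockdown (SD, n = 3), with pair differences of 0.11, 0.39 and 1.04 in series 1, 2 and 3. The direction was the same in 3 of 3 pairs, and the group difference of 0.51 was smaller than the control SD and larger than the knockdown SD. An exact two-sided permutation test of the groups gave p = 0.4, where 0.1 is the smallest possible. The exact sign-flip test over the pairs, two-sided, gave p = 0.25, the smallest that 3 pairs allow. This comparison was chosen after the values had been seen, so these p-values only describe the samples. A difference between 2 assays is not a ratio of molecules, since their efficiencies are unknown.

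Over the 6 samples, the centred level of miR-320 had an SD of 0.67, equal at this precision to the median of 0.67 over the 157 commonly detected assays. The SD of miR-484 was 0.94, larger than that of 123 of the 157 and just above the upper quartile of 0.92. The assays most like miR-484 were miR-126 (Pearson r = 0.985 over 6 samples), miR-138 (0.979) and miR-186 (0.978), and those most like miR-320 were miR-489 (0.938), miR-628-5p (0.926) and miR-200c (0.922). Each of these 6 assays was at its highest in the samples of series 3, as were both members. The r of miR-320 with miR-484 was 0.815, the 12th highest for miR-320, against a median r of 0.164 over 156 assays. The points share cards and series, so these values describe the samples and nothing more.

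miR-451, which skips Dicer and is abundant in red blood cells, was undetermined in all 3 controls and in knockdowns 1 and 3. Its single value was a Ct of 35.9 in knockdown 2, later than the limit of 35, at a ratio to U6 of 7.21e-07. Whether it differs between the groups cannot be read from 1 well.

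Of the miR-886 arms, miR-886-3p was determined at Ct 33.5 in knockdown 1 and 34.7 in knockdown 2 and was undetermined in knockdown 3 and in all 3 controls. The ratios to U6 were 2.46e-06 and 1.62e-06. miR-886-5p was determined in control 3 alone, at Ct 33.2 and a ratio of 4.66e-07. The arms were never determined on the same card, so no difference between them could be formed. The one determined in knockdown samples was the 3p arm and the one determined in a control was the 5p arm. Fisher's exact test of determined wells, two-sided, gave p = 0.4 for miR-886-3p and 1 for each of miR-886-5p and miR-451, all 1 after adjustment over the 3 assays. With 2 determined wells, 0.4 is the lowest value that this test can give. With 1 determined well, its outcome is the same whichever card holds the well. The test therefore could not decide whether detection differed between the groups.

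The pattern of miR-886-3p, at least 2 knockdown and 0 control wells, was shared by 4 of 377 assays (1.06%). The others were miR-34c (Ct 26.8 to 29.1), miR-137 (31.2 to 32.8) and miR-570 (34.2 to 35.3), named because the count was small. The opposite pattern held for 2 assays (0.531%), miR-143 (30.6 to 30.7) and miR-450b-3p (31.8 to 33.1). Such patterns were thus not confined to the latest assays. In all, 65 assays (17.2%) were determined in 1 or 2 of 6 samples. Their 87 determined wells ran from Ct 3.73 to 37.8, with 58 (66.7%) at 32 or later. Late assays often gave no value: among 45 assays whose determined wells averaged a Ct of 33 or more, miR-451 and both miR-886 arms included, 173 of 270 wells (64.1%) were undetermined. The share was 34.6% among 93 assays averaging 30 to 33, 2.62% among 89 averaging 25 to 30 and 3.40% among 49 averaging under 25. The Ct values of these 3 members therefore lie where a missing well is common on these cards.

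**Figure D4:**
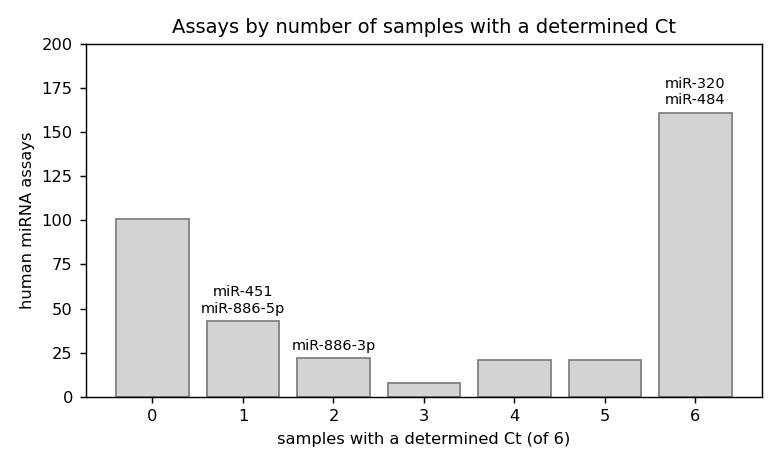
Number of human miRNA assays (bars, 377 in all) by the number of the 6 samples in which the assay had a determined Ct, with the members named above the bar that holds them. miR-320 and miR-484 are among 161 assays determined in 6 samples, miR-886-3p among 22 determined in 2, and miR-451 and miR-886-5p among 43 determined in 1.

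Other assays gave context for miR-451 and for the cell label. On the card, 6 further names of blood or serum miRNAs were read by 7 assays, of which 2 were determined in all samples (miR-486, at Ct 26.1 to 28.8, and miR-223, at 29.5 to 36.2) and 2 in none (miR-122 and miR-142-5p). Of the 3 of these assays that were tested, 2 had a higher and 1 a lower mean in knockdown, with a median log2 fold change of 0.20, and 0 passed the test. The 9 assays listed for dividing embryonic lines, the miR-17 cluster and its relatives, were determined in all 6 samples at Ct 15.9 to 28.0. In knockdown 4 of the 9 had a higher and 5 a lower mean relative to U6, with a median log2 fold change of -0.11 against -0.10 over all 195 assays, and 0 passed. A list of 27 other names matched 0 assay names. It covered possible products of mirtrons, small nucleolar RNAs, transfer RNAs, Y RNAs and other capped precursors. Among its names were miR-320b, miR-320c, miR-320d and miR-451b. The name miR-144, encoded beside miR-451, matched no assay either, and none of these was analysed here.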

How the data were processed

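Total RNA (1000 ng) was reverse transcribed with Megaplex Pool A primers and run on TaqMan array cards for 40 cycles, per the labels' protocols. The deposited raw table holds Ct values; threshold and baseline settings are not given in the sources used here. The deposited normalized table holds a ratio to U6, recovered here as 2 to the power of the mean determined U6 Ct minus the assay's Ct (largest log2 difference 6.77e-06). Its log2 was tested.

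Tested assays had a Ct under 35 in at least 3 samples and at least 2 determined values per group. U6 and the plant control were not tested, and undetermined wells were missing. Groups were compared in limma 3.58.1 (R 4.3.3; lmFit and eBayes, two-sided, group as the only term, Benjamini-Hochberg over all assays tested), on the U6 scale and after centring each card on its median. The code was tested on simulated data.

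Control and knockdown samples of one series number deviated together over 161 assays (r = 0.416, 0.527 and 0.625), which the values show and no label states. Samples of unlike number had r = 0.249 and 0.129 between series 1 and 2. With series 3 in such a combination, r was -0.342 to -0.536. Each value was a deviation from the mean of its group, and the deviations of a group cancel out for every assay. Positive r in some combinations therefore forces negative r in others, so these r do not measure how far series 3 stood apart. The main fit and the permutation tests leave the pairing by series number out. A fit with the number as a replicate block is the alternative. Members and lists were chosen with earlier results of these data known. Named assays are the members, U6, miR-144, the lists, and the 3 assays most correlated with each fully determined member; miR-34c, miR-137, miR-570, miR-143 and miR-450b-3p were added after their values were seen. There are no counts behind a Ct, so depth is given as assays determined per card. The miR-320 sequence is not shown.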

Additional observations from a re-analysis of the deposited data

How the results depend on the processing

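On both scales 0 assays reached an adjusted p of 0.05 under every alternative run. There were 7 settings relative to U6 and 10 relative to the card median. Of those 10, 2 joined the replicate block to another scaling and were chosen after seeing the data. On each scale, the setting without a filter on Ct kept the same 195 assays and so repeated the main fit. A further 6 fits per scale each left out a sample, so 0 is both ends of the range. The replicate block cannot move the group difference of an assay determined in all 6 samples. Both members' values were therefore the same by construction relative to U6 (0.40 and -0.11) and to the card median (0.44 and -0.07). The block could alter their SEs and p-values, and it changed no call. Raw Ct without a reference turned miR-320 to -0.51. By construction, this value differs from the one relative to U6 only by the difference in mean U6 Ct, 0.905 cycles later in knockdown. Relative to the card median, miR-484 turned to 0.026 with the mean of common assays and 0.19 with quantile normalization, with or without the replicate block; the cause was not tested. Leaving out single samples gave -0.031 to 0.89 for miR-320 and -0.64 to 0.33 for miR-484 relative to U6, and -0.038 to 0.76 and -0.63 to 0.56 relative to the card median. The U6 difference ran from 0.172 to 1.54 cycles in the same way, and was 0.906 with the median of the wells. With the replicate block it was 0.905, which is the main value by construction. The excess of miR-320 over the median change within series stayed between 0.53 and 0.55 with 3 other sets of assays behind the median, and between 0.33 and 0.66 with a series left out; that of miR-484 ran from 0.02 to 0.04 and from -0.10 to 0.09. The planned miR-886 arm difference and its alternatives were not run, because no card had both arms determined. Each member has 1 well per card, so well error and sample differences cannot be told apart.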
